A study of Mus musculus with 15 samples.

Results

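The transcriptional response of Clic4-knockout mammary cancer cells to hydrogen peroxide (H2O2) was read from 7 of the 15 libraries of the series. These are the libraries titled as knockout with H2O2 (numbers 5, 7 and 8) and knockout without treatment (numbers 1 to 4), and all genes were considered. The cells are 6DT1, a mouse mammary cancer line on the FVB/N1 background, in which the gene for chloride intracellular channel 4 had been knocked out. Treated cells received 1 µM H2O2 and were lysed after 24 h, and untreated cells received none. The only comparison set used the 8 libraries of wild-type 6DT1 cells, 4 untreated (numbers 9 to 12) and 4 given the same H2O2 (numbers 13 to 16). The labels name no clone, no way in which the knockout was made and no separate cultures, so p-values measure the spread between these libraries, which may be technical. Library 9 is titled and sourced as wild type while its genotype field says knockout, and it was kept as wild type.

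H2O2 is made by mitochondria and oxidases and is cleared by catalase, peroxiredoxins and glutathione peroxidases. Cells given an excess of it are known to use the transcription factor NRF2, freed from its partner KEAP1, to raise antioxidant and thiol-reducing enzymes. Metallothioneins bind zinc and copper and are induced by metals and oxidants through metal response elements, and NF-kB, p53 and the integrated stress response can also be engaged. CLIC4 is a small protein found in several compartments, mitochondria among them.

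Depth was similar in both arms, at 13.3 to 16.0 M counts in untreated knockout libraries and 12.3 to 14.7 M in treated ones. Clic4 was 75.1, 74.0, 71.96 and 64.2 counts per M (CPM, scaled between libraries) in untreated knockout libraries 1 to 4 and 75.9, 68.4 and 71.1 in the treated ones. Wild-type libraries held 313 to 327 CPM, so the knockout lowers Clic4 RNA without removing it, and library 9 lies with the wild type. H2O2 left no called change in Clic4 of knockout cells (log2 difference 0.01, 95% interval -0.09 to 0.11, n = 4 and 3). Clic1, the abundant relative, was 344, 336, 343 and 345 CPM untreated and 361, 362 and 355 CPM treated, a log2 difference of 0.07 (adjusted p 0.657). Of the mammary epithelial markers, Krt8, Krt18 and Krt19 were abundant (Krt8 627 to 681 CPM in knockout libraries), while Krt7 and Cldn7 were at 0 and Epcam, Cdh1 and Cldn3 at or near 0 in every knockout library. Of the basal or mesenchymal-like markers, Vim stood at 4035 to 4420 CPM, while Krt5, Krt14, Trp63, Cdh2 and Acta2 were at or near 0 in every knockout library. Of the immune markers, Ptprc and Cd3e were at 0 in every knockout library, and Cd68 was present at 265 to 305 CPM. In bulk RNA, fewer cells carrying a transcript and less of it per cell cannot be told apart.

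Very little moved with H2O2 in knockout cells. With edgeR's quasi-likelihood test and Benjamini-Hochberg adjustment over 13085 genes, 7 genes were called at an adjusted p under 0.05, which is 0.0535% of those tested. All 7 fell, and 0 genes rose. At an unadjusted p under 0.05 there were 1041 genes (7.96%), 585 of them lower (4.47%) and 456 higher (3.48%). Over all genes, 49.8% had a log2 difference under 0, which is the share to hold beside the lists below. DESeq2 called 18 higher and 35 lower genes. Limma-voom called 8 genes, of which 1 was higher and the others lower. The median log2 difference over all genes was 0.00. Among the 10178 genes that averaged 5 CPM or more, 97.4% lay within 0.25 of 0 on the log2 scale, 32 differed by 0.5 or more and 6 by 1 or more. Their 95% intervals reached 0.13 either side of the estimate (median). A call asked for more than an interval that leaves out 0, because p-values were adjusted over all 13085 genes.

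**Figure D1:**
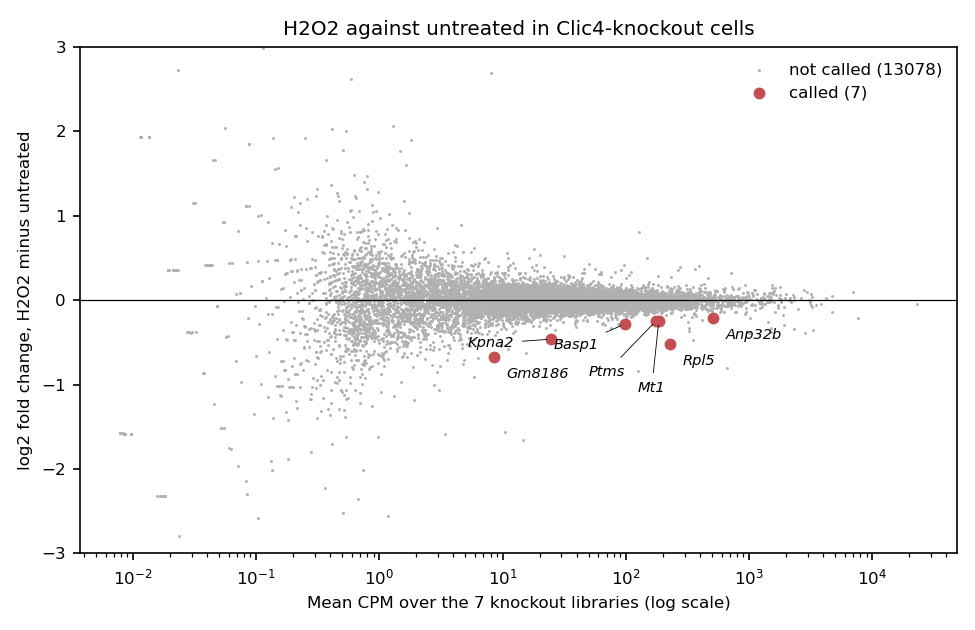
Log2 difference between H2O2-treated and untreated knockout cells (vertical axis) against mean CPM over the 7 knockout libraries (horizontal axis, log scale), 1 point per gene tested. The 7 called genes are red and all lie below 0, and 13078 genes are grey, of which 18 lie outside the axis limits of 3 on the log2 scale.

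The called genes were Gm8186, Rpl5, Kpna2, Mt1, Anp32b, Ptms and Basp1, and in each of them all 3 treated libraries lay below all 4 untreated ones. Groups did not overlap for 1009 of the 13085 genes (7.71%), 547 with the treated libraries lower (4.18%) and 462 with them higher (3.53%). They comprise a metal-binding protein, acidic nuclear proteins, a membrane-associated protein, a nuclear import adaptor, a ribosomal protein and a processed pseudogene (Gm8186). By the deposited RPKM, which corrects for gene length, untreated levels ran from 13.7 for Kpna2 and 42.0 for Basp1 through 129 for Ptms and 166 for Mt1 to 213 for Anp32b.

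Mt1 encodes metallothionein 1, a small cysteine-rich protein that holds zinc and copper (chr8:94179082-94180327, plus strand, mm10). It stood at 188, 196, 208 and 212 CPM in untreated libraries 1 to 4 and at 175, 165 and 169 CPM in treated libraries 5, 7 and 8. The groups came nearest at untreated library 1 and treated library 5. Mt1 fell by 0.25 on the log2 scale (SE 0.05, adjusted p 0.0241 by edgeR's quasi-likelihood test). Its neighbour Mt2, the second abundant metallothionein, was 259, 254, 244 and 233 CPM untreated and 228, 215 and 226 CPM treated. Mt2 had a log2 difference of -0.15 (unadjusted p 0.00394, adjusted p 0.355) and was not called, although its groups did not overlap. In wild-type cells the log2 difference was 0.06 for Mt1 and 0.05 for Mt2.

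The promoter of Mt1 is shown because this is the called gene whose control by metal and oxidant is best described. These are the 250 bases upstream of the RefSeq start on chromosome 8 of GRCm38.p6 (chr8:94178839-94179088, plus strand). The match to the metal response element core within these bases is in capitals.
Mt1: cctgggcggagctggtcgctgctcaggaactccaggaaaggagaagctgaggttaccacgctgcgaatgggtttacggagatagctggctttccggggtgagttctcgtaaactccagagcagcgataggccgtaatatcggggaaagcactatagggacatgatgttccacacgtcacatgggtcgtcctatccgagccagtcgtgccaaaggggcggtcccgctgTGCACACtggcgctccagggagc
The core was searched as TGCACNC or TGCGCNC on both strands, a search chosen after the values were seen. Further matches for Mt1 begin 2 and 20 bases past the RefSeq start, outside the bases shown. Of 32851 RefSeq promoters of 300 bases, 25.7% hold a match, so the letters are common. Promoters of 6 called genes were in the table (Gm8186 was named only), and 2 of them, Mt1 and Basp1, held the core. Among the 12237 promoters of tested genes the share is 35.5%. The kappaB motif of NF-kB was in 2 of the 6 (Ptms and Basp1), against 5.81% of all promoters and 7.08% of those of tested genes. The antioxidant response element core, TGACNNNGC, was in 1 of the 6 (Kpna2) against 12.4% and 14.3%. The AP-1 element, TGACTCA or TGAGTCA, was in 0 of the 6 against 5.20% and 4.19%.

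Anp32b, Ptms and Ptma encode small, strongly acidic nuclear proteins that bind histones. Anp32b (chr4:46450902-46472657, plus strand) was 553, 558, 524 and 549 CPM untreated and 474, 485 and 457 CPM treated. It fell by 0.21 on the log2 scale (SE 0.04, adjusted p 0.0243). Ptms, which encodes parathymosin (chr6:124913681-124920103, minus strand), was 191, 182, 188 and 198 CPM untreated and 162, 169 and 147 CPM treated, and it fell by 0.25 on the log2 scale (SE 0.05, adjusted p 0.0243). Prothymosin alpha, encoded by Ptma, was 2071, 2060, 1996 and 1965 CPM untreated and 1816, 1842 and 1704 CPM treated. Its groups did not overlap either, with a log2 difference of -0.18 and an adjusted p of 0.0846, so it was not called by edgeR's quasi-likelihood test with the main settings. DESeq2 called Ptma. The wild-type differences were 0.02 for Anp32b, 0.08 for Ptms and 0.02 for Ptma.

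Basp1 encodes an acidic protein anchored to the inner face of the plasma membrane (chr15:25363277-25413764, minus strand). Untreated libraries held 105, 101, 105 and 120 CPM and treated libraries 94.3, 87.4 and 83.5 CPM. Untreated library 4 was the highest and the other 3 lay between 101 and 105 CPM. Basp1 fell by 0.28 on the log2 scale (SE 0.05, adjusted p 0.0243), against -0.03 in wild-type cells. None of Mt1, Anp32b, Ptms and Basp1 had a near-identical copy among the genes tested.

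**Figure D2:**
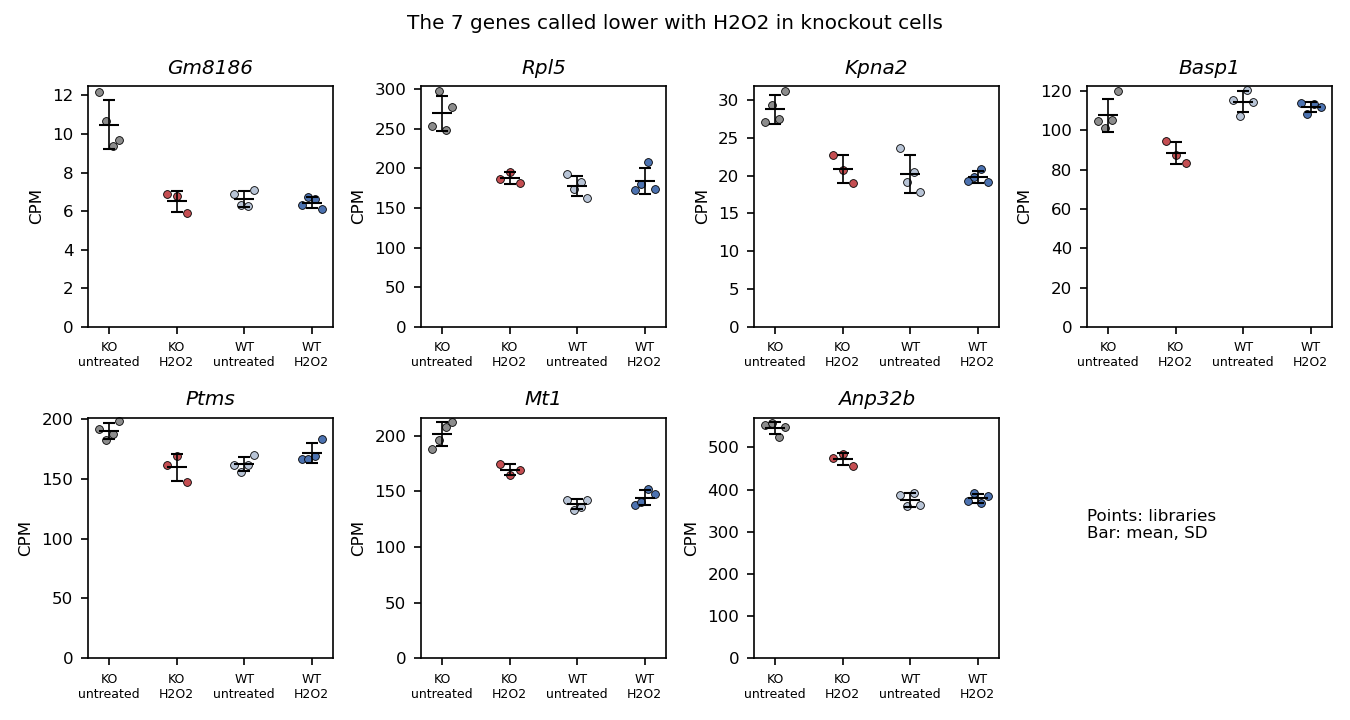
CPM of the 7 called genes in each library (points), with group mean and SD, for knockout and wild-type cells without and with H2O2; every vertical axis starts at 0. In each panel the 3 treated knockout libraries lie below the 4 untreated ones, while treated and untreated wild-type libraries overlap.

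Several lower genes came just short of the threshold. Arf3, which encodes a small GTPase of the secretory pathway, was 295, 296, 289 and 315 CPM untreated and 259, 270 and 254 CPM treated (log2 -0.19, adjusted p 0.0555). Pfn1, which encodes the actin-binding protein profilin 1, was 384, 391, 393 and 403 CPM untreated and 366, 345 and 326 CPM treated (log2 -0.19, adjusted p 0.0563). Snx12, a sorting nexin gene, was 83.1, 81.9, 78.2 and 83.5 CPM untreated and 67.6, 73.4 and 71.9 CPM treated (log2 -0.20, adjusted p 0.0760). Groups did not overlap in any of the 3, and their wild-type log2 differences were -0.03, 0.02 and -0.01. Denr, a factor of translation reinitiation, had a log2 difference of -0.24 (adjusted p 0.0847). DESeq2 called Arf3, Pfn1, Snx12 and Denr.

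The other 3 called genes share their sequence with a second, more abundant gene. How counts were divided within each pair is not given in the sources used here, so these calls are uncertain. Untreated means were 269 CPM for Rpl5 and 1539 for Gm15500, 28.7 for Kpna2 and 103 for Gm10184, and 10.5 for Gm8186 and 62.2 for Snrpg. A sum over such a pair mostly follows the abundant gene, so it cannot decide whether the called gene itself fell. Rpl5 encodes a large-subunit ribosomal protein that carries ribosomal RNA into the assembling subunit (chr5:107900502-107909005, plus strand). It was 253, 297, 249 and 278 CPM untreated and 186, 195 and 181 CPM treated, a fall of 0.52 on the log2 scale (SE 0.07, adjusted p 0.0241). Gm15500 matches Rpl5 at 100% identity over 1018 bases and was 1539 CPM untreated and 1660 CPM treated on average. So Rpl5 was lower by 81.7 CPM while its copy was higher by 121 CPM. With the family summed, the values were 1861, 1860, 1740 and 1772 CPM untreated and 1778, 1897 and 1879 CPM treated, a log2 difference of 0.03 (adjusted p 0.864).

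Kpna2 encodes importin alpha 1, an adaptor that carries proteins with a nuclear localisation signal into the nucleus (chr11:106988629-106999541, minus strand). It was 27.0, 29.3, 27.5 and 31.2 CPM untreated and 22.7, 20.8 and 19.0 CPM treated, and fell by 0.46 on the log2 scale (SE 0.08, adjusted p 0.0241). Its copy Gm10184, 99.9% identical over 1968 bases, was higher by 4.37 CPM on average. The 2 genes summed had a log2 difference of -0.03 (adjusted p 0.891). Gm8186 is a processed pseudogene (chr17:26098991-26099221, minus strand) whose 231 bases are all found in Snrpg, which encodes a core protein of splicing particles. It was 12.2, 10.7, 9.37 and 9.68 CPM untreated and 6.88, 6.80 and 5.89 CPM treated, a fall of 0.67 on the log2 scale (SE 0.11, adjusted p 0.0241). Summed with Snrpg it had a log2 difference of -0.11 (adjusted p 0.678). Snrpg itself differed by -1.47 CPM on average, so this pair did not shift in opposite directions.

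**Figure D3:**
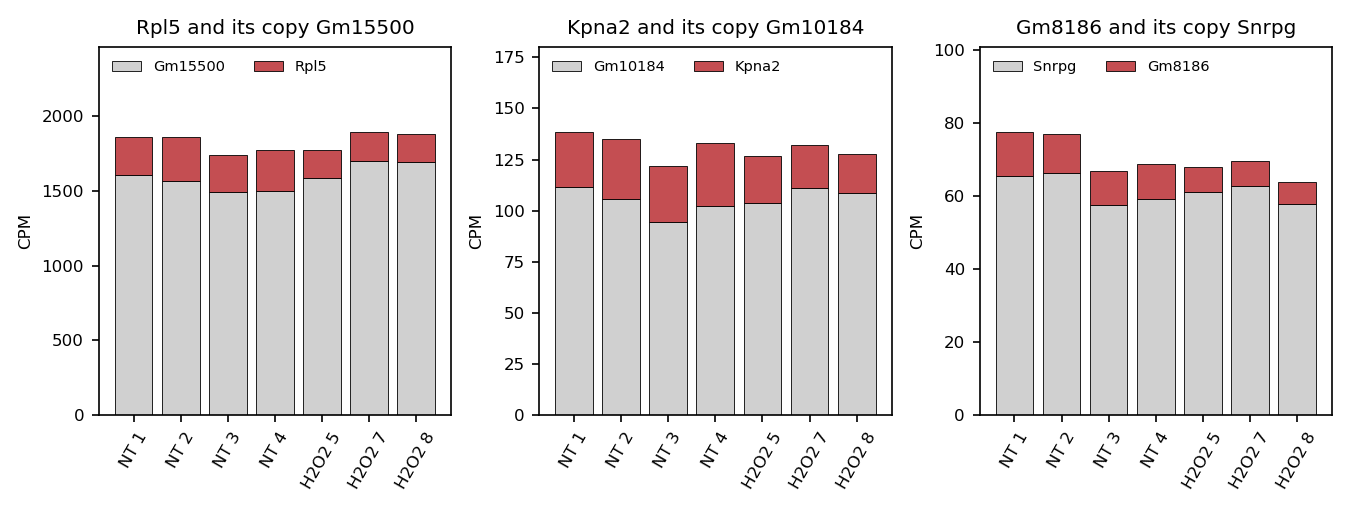
CPM of 3 called genes (red) stacked on a near-identical copy (grey) in the 7 knockout libraries, with vertical axes from 0. Red segments are smaller in the treated libraries, while the stack totals overlap between groups in every panel (Rpl5 with Gm15500, Kpna2 with Gm10184 and Gm8186 with Snrpg).

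Counts were therefore summed over 375 families of near-identical genes (853 genes, at least 98% identity over at least 90% of the shorter transcript), an alternative added after the values were seen. Anp32b, Ptms, Mt1 and Basp1 were then the 4 genes called, each with an adjusted p of 0.0357. Among genes with the smallest p on the higher side, many were also copies. Gm10123, a copy of the cyclophilin gene Ppia at 100% identity over 490 bases, was 396, 404, 403 and 401 CPM untreated and 441, 470 and 461 CPM treated (adjusted p 0.0555), while Ppia itself had a log2 difference of -0.02. Gm12918, a copy of Rpl13, had a log2 difference of 0.49 and Rpl13 one of -0.13. Higher genes without such a copy included Ncaph2, a condensin subunit (log2 0.18, adjusted p 0.110), and Tubb4b, a beta tubulin (log2 0.17, adjusted p 0.165). Another was Haus5, a subunit of the augmin complex of the spindle (log2 0.28, adjusted p 0.127). None of these higher genes was called by edgeR's quasi-likelihood test with the main settings. DESeq2 called Ncaph2, Tubb4b and Gm10123, as did edgeR with no low-count filter. Scaling by RLE or by library totals and a minimum of 10 CPM in 3 libraries each called Gm10123 too. Gm12918 was called by limma-voom and with dispersion fitted without robust weights.

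Untreated library 4 stood apart from the other untreated knockout libraries. On the first principal component of the 7 knockout libraries, which held 34.9% of the variance, library 4 was at 14.8 and the others between -5.9 and 2.9. Its highest correlation with another knockout library was 0.9939, against 0.9962 or more for each of the others. Without library 4 the knockout comparison had 1 called gene, Gm8186 (0.00767% of 13046 genes), and at an unadjusted p under 0.05 it had 3.03% of genes lower and 2.74% higher. Anp32b, Mt1 and Kpna2 then had an adjusted p of 0.0625, Ptms 0.0717, Basp1 0.0863 and Rpl5 0.0873, with log2 differences of -0.21, -0.22, -0.42, -0.23, -0.23 and -0.51. With the 7 knockout libraries fitted alone, Kpna2 and Rpl5 were called while Mt1, Anp32b, Ptms, Basp1 and Gm8186 were not, with adjusted p-values of 0.0652, 0.0969, 0.0899, 0.110 and 0.0521 and log2 differences of -0.25, -0.21, -0.25, -0.28 and -0.67. Leaving out treated library 8 gave 0 calls by edgeR's quasi-likelihood test, with 770 genes at an unadjusted p under 0.05.

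NF-kB is a dimeric factor held in the cytoplasm by IkB proteins and released by inflammatory and stress signals, and its targets include chemokines, cytokines and its own inhibitors. Of 38 listed targets 34 were tested, of which 30 had a log2 difference above 0, with a median of 0.12. By edgeR's quasi-likelihood test 0 were called and 0 had an unadjusted p under 0.05, where 3.48% of all genes did so on the higher side. Without untreated library 4 the median was -0.02 and 23 of the 34 were under 0. That library was the lowest of the 7 in 32 of the 34, all but Sod2 and Tnfaip2. How often it was the lowest over all genes was not counted. The median target in library 4 was at 0.567 of the mean of untreated libraries 1 to 3, and the treated libraries were at 0.986 of it.

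The lowest targets in library 4 were Saa3, an acute-phase protein gene, at 0.106 of the mean of libraries 1 to 3, Csf3 at 0.141 and the chemokine gene Ccl20 at 0.209. Cxcl1, which attracts neutrophils, was 779, 651, 699 and 177 CPM untreated and 658, 504 and 631 CPM treated. Csf3, the granulocyte colony-stimulating factor gene, was 55.4, 38.1, 49.1 and 6.68 CPM untreated and 46.0, 30.3 and 46.6 CPM treated. Ccl2, which attracts monocytes, was 528, 447, 448 and 152 CPM untreated and 450, 375 and 448 CPM treated. In all 3 genes every treated library lay above library 4, and the treated mean was 0.842 (Cxcl1), 0.862 (Csf3) and 0.895 (Ccl2) of the mean of libraries 1 to 3. The log2 difference of Cxcl1 was 0.05 with a 95% interval of -0.74 to 0.85, and without library 4 it was -0.25. Csf3 (-0.22), Ccl2 (-0.16) and Nfkbia (-0.08) were also under 0 without that library, and above 0 with it. Inhibitors of the pathway were low in library 4 as well, at 0.519 of the mean of libraries 1 to 3 for Nfkbia and 0.599 for Tnfaip3. Nfkbia, which encodes the inhibitor IkB alpha, was 158, 135, 146 and 76.0 CPM untreated and 146, 123 and 146 CPM treated, and Tnfaip3, the A20 deubiquitinase gene, was 28.0, 24.5, 27.2 and 15.9 CPM untreated and 29.7, 24.1 and 31.7 CPM treated. Summed over the list, library 4 held 1534 CPM, the other untreated libraries 2906 to 3287 and the treated ones 2590 to 3035. What set library 4 apart was not tested.

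The promoter of Cxcl1 is shown because this chemokine carries much of the low signal of library 4. It is the 250 bases upstream of the RefSeq start (chr5:90890995-90891244, plus strand, GRCm38.p6), with the kappaB motif in capitals.
Cxcl1: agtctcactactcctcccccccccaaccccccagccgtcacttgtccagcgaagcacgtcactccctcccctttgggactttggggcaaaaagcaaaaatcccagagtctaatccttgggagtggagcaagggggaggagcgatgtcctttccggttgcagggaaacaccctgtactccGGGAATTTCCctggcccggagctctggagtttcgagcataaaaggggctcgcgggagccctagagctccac
Promoters were found for 24 of the tested targets, and the kappaB motif, searched on both strands, was in 14 of their 28 promoters against 5.81% of all promoters.

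**Figure D4:**
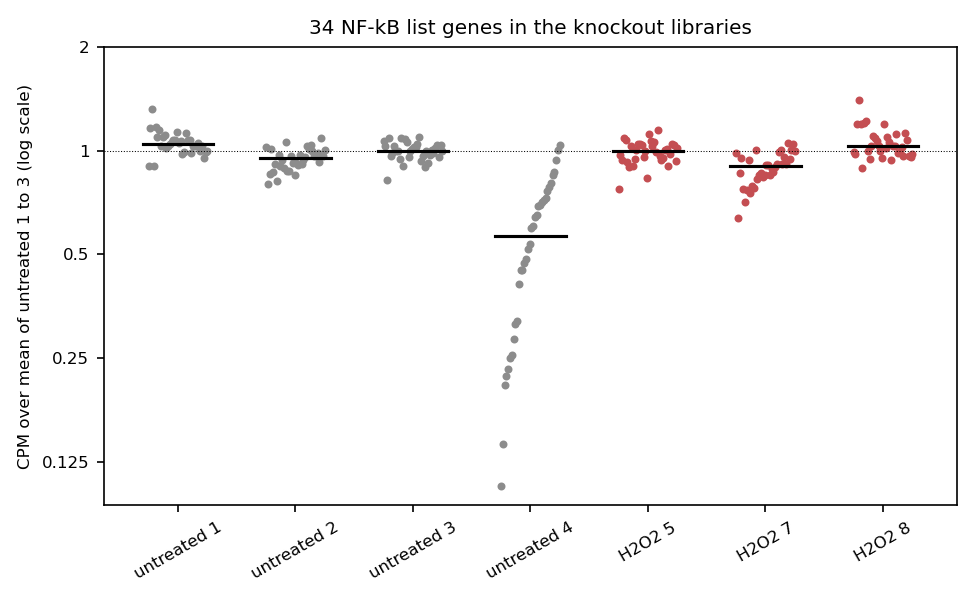
Each point is 1 of 34 NF-kB targets, as its CPM over the mean of untreated libraries 1 to 3 (vertical axis, log scale), in the 7 knockout libraries; black lines are medians. The median is 0.567 in untreated library 4 and between 0.902 and 1.05 in the other 6 libraries.

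Other lists moved with library 4 as well. It was the lowest of the 7 for 24 of 29 integrated stress response genes, 36 of 50 ribosomal protein genes and 19 of 28 p53 targets, and the highest for 17 of 29 interferon-stimulated genes and 17 of 23 cholesterol synthesis genes. Library 4 was also the lowest for 21 of 37 DNA replication genes, and the highest for 15 of 25 lysosome and 14 of 24 endoplasmic reticulum chaperone genes. For nuclear complex I it was the lowest in 2 of 36. The same counts over all genes were not made, so no share stands beside these. The median log2 difference of the integrated stress response list was 0.04 and -0.02 without library 4, that of p53 targets 0.05 and -0.01, and that of cholesterol synthesis -0.07 and -0.02. Rpl5 was the only called gene in these lists. Among p53 targets, Ccng1, a cyclin G gene, was 162, 170, 152 and 163 CPM untreated and 172, 181 and 170 CPM treated (log2 0.11, adjusted p 0.499). Cdkn1a, the cell-cycle inhibitor p21, was 286, 283, 291 and 222 CPM untreated and 289, 293 and 283 CPM treated, so that only library 4 differed.

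NRF2 targets, the classical answer to H2O2, held 0 calls by edgeR's quasi-likelihood test, while DESeq2 called Ephx1 and Fth1. Of 30 tested NRF2 targets, 10 had a log2 difference above 0 and 20 under 0, with a median of -0.05. At an unadjusted p under 0.05, 2 were higher and 6 lower, where 3.48% of all genes were higher and 4.47% lower. Well-known members, named after their values were seen, were Hmox1, the haem-degrading oxygenase (log2 0.04, 95% interval -0.10 to 0.17), Srxn1, which repairs peroxiredoxins (0.05, -0.05 to 0.16), Nqo1, a quinone reductase (-0.08, -0.27 to 0.11), Gclm, the modifier subunit of glutathione synthesis (0.03, -0.11 to 0.16), and Gclc, its catalytic partner (-0.01, -0.12 to 0.10). Without library 4, Hmox1 and Gclm were both at -0.01. Ephx1, which hydrolyses epoxides, was 104, 109, 100 and 76.8 CPM untreated and 121, 127 and 120.5 CPM treated. Its log2 difference was 0.33 (adjusted p 0.273), and without library 4 it was 0.23 (adjusted p 0.0625). Fth1, the ferritin heavy chain that stores iron, was 1685, 1769, 1696 and 1684 CPM untreated and 1601, 1596 and 1470 CPM treated, a log2 difference of -0.14 (adjusted p 0.273) with no overlap.

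Enzymes that remove peroxide and superoxide were at similar levels. Of 29 tested, 12 were above 0 and 17 under 0, with a median of -0.03. At an unadjusted p under 0.05, 1 was higher and 4 lower (3.48% and 4.47% of all genes). Catalase (Cat) was 54.9, 56.3, 53.7 and 65.9 CPM untreated and 52.8, 53.5 and 56.4 CPM treated. Txn1, which encodes thioredoxin, was 307, 290, 284 and 281 CPM untreated and 272, 265 and 265 CPM treated, with no overlap (log2 -0.12, adjusted p 0.469). Its reductase Txnrd1 had a log2 difference of -0.08 (adjusted p 0.626). Prdx1, an abundant peroxiredoxin, had one of -0.02, with a 95% interval of -0.10 to 0.06. Aqp8, a channel that passes H2O2, was 7.89, 7.87, 7.85 and 7.54 CPM untreated and 8.26, 9.48 and 9.49 CPM treated (log2 0.22, adjusted p 0.609).

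Transcripts of mitochondrial DNA had the median farthest from 0 among lists of at least 9 tested genes. Mitochondrial DNA encodes 13 subunits of the respiratory chain and ATP synthase, transcribed together from both strands, and all 13 were tested. Of these, 11 had a log2 difference under 0, with a median of -0.29 and 6 at an unadjusted p under 0.05, all lower, where 4.47% of all genes were so. None was called. Without untreated library 4 the median was -0.26. In wild-type cells it was 0.07. Of the 13 genes, 7 have a near-identical copy annotated at another locus, and for some the copy holds most of the count (mt-Co2 191 CPM and its copy Gm28661 3706 CPM in untreated cells). With the copies summed, which was added after the values were seen, all 13 were under 0 and 11 had an unadjusted p under 0.05, with a median of -0.34 and 0 called by edgeR's quasi-likelihood test. Counted without copies, as a share of all counts, they made up 1.73, 2.30, 1.87 and 1.99% in untreated libraries 1 to 4 and 1.75, 1.64 and 1.502% in treated libraries 5, 7 and 8. The groups thus overlapped in that sum, with untreated library 2 the highest and library 1 level with treated library 5. With copies the shares were 2.93, 3.84, 3.13 and 3.35% untreated and 2.92, 2.77 and 2.53% treated, where library 1 and treated library 5 still all but met.

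Single members varied. mt-Atp8, a subunit of ATP synthase, was 736, 993, 764 and 904 CPM untreated and 518, 512 and 430 CPM treated, a log2 difference of -0.80 (SE 0.13, adjusted p 0.0563). It was called by limma-voom. Its gene overlaps mt-Atp6, which was 296, 218, 220 and 108 CPM untreated and 284, 259 and 217 CPM treated (log2 0.27, adjusted p 0.858). Summed with its copy Gm10925, mt-Atp6 was 3176, 3970, 3218 and 3534 CPM untreated and 2894, 2784 and 2560 CPM treated, a log2 difference of -0.34 (adjusted p 0.290). How reads were divided among these genes is not given in the sources used here. mt-Nd6, the one complex I subunit read from the light strand, was 343, 476, 383 and 448 CPM untreated and 326, 296 and 267 CPM treated (log2 -0.48, adjusted p 0.397). mt-Cytb, of complex III, was 2289, 2917, 2426 and 2797 CPM untreated and 2236, 2037 and 1892 CPM treated (log2 -0.34, adjusted p 0.541). For mt-Co1, of complex IV, the groups overlapped, at 7184 to 9951 CPM untreated and 6581 to 7604 CPM treated. mt-Nd3 was, with mt-Atp6, one of the 2 members above 0, at a log2 difference of 0.10 alone and -0.17 with its copy summed.

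Nuclear genes for the respiratory chain had small differences. Of 36 tested complex I subunits 26 were under 0, with 4 lower at an unadjusted p under 0.05 and a median of -0.04. Of 39 subunits of complexes II to V, 32 were under 0, with 9 lower at that threshold and a median of -0.05. Of all genes, 4.47% were lower at that threshold. Ndufs6, which binds zinc in complex I, was 28.2, 27.6, 26.0 and 26.2 CPM untreated and 21.6, 21.8 and 22.5 CPM treated, with no overlap (log2 -0.30, adjusted p 0.137). Cox5b, of complex IV, was 64.0, 66.3, 71.6 and 68.0 CPM untreated and 61.6, 57.3 and 58.2 CPM treated (log2 -0.19, adjusted p 0.405). Atp5g2, of ATP synthase, has a near-identical copy and had a log2 difference of -0.29 alone and 0.02 with its copy summed. Many of these transcripts are short. With protein-coding genes split by transcript length into 5 equal parts, the share lower at an unadjusted p under 0.05 was 6.07% in the part of shortest and 3.62% in that of longest transcripts. The part of length in these lists was not tested.

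Several lists lay above 0, among them DNA replication, mitosis, hypoxia and matrix. Of 37 tested DNA replication genes, 34 were above 0, with 5 higher at an unadjusted p under 0.05 (3.48% of all genes), a median of 0.08, and 0.04 without library 4. Of 33 mitosis genes, 28 were above 0, with a median of 0.05. Wild-type cells had medians of 0.07 for both, with 8 and 9 genes higher at that threshold (3.24% of all genes). Mcm7, of the replicative helicase, was 151.5, 151, 146 and 135 CPM untreated and 161, 157 and 154 CPM treated (log2 0.11, adjusted p 0.499). Among 22 hypoxia-inducible genes, 20 were above 0 (median 0.08), Ndrg1 and the oxygen sensor gene Egln1 among them, with log2 differences of 0.12 and 0.13. Collagens and matrix genes had 15 of 22 above 0 and 6 higher at that threshold. Krt18, an epithelial keratin, was 158, 147, 156 and 153 CPM untreated and 175, 169 and 160 CPM treated (log2 0.13, adjusted p 0.289). None of the genes in these lists was called by edgeR's quasi-likelihood test with the main settings. DESeq2 called Krt18, and also the laminin gene Lamb1.

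Genes of DNA damage signalling had 17 of 28 above 0, with 4 higher and 1 lower at an unadjusted p under 0.05 (3.48% and 4.47% of all genes). Chek1, the checkpoint kinase gene, was 21.0, 19.8, 17.8 and 19.0 CPM untreated and 23.8, 21.9 and 22.8 CPM treated, with no overlap (log2 0.24, adjusted p 0.328). The repair scaffold gene Xrcc1 was 43.8, 40.4, 43.8 and 38.5 CPM untreated and 45.8, 47.0 and 46.8 CPM treated (log2 0.16, adjusted p 0.405). Plat, the tissue plasminogen activator gene of the matrix protease list, was 96.2, 103, 93.3 and 73.4 CPM untreated and 109, 111 and 108 CPM treated (log2 0.26, adjusted p 0.296), with library 4 the lowest. The matrix protease list had 13 of 22 above 0, and DESeq2 called Plat.

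Cholesterol synthesis had 19 of 23 genes under 0, with 3 lower at an unadjusted p under 0.05 (4.47% of all genes). Insig1, which retains the sterol sensor in the endoplasmic reticulum, was 45.7, 48.8, 48.6 and 57.6 CPM untreated and 43.7, 44.2 and 43.8 CPM treated (log2 -0.20, adjusted p 0.405). Library 4 was the highest untreated library there, as it was for Dhcr7, an enzyme of the last steps, at 106 CPM against 76.4 to 82.7 in libraries 1 to 3 and 73.6 to 79.0 in treated libraries. Interferon-stimulated genes had 13 of 29 above 0 and 16 under 0, and antigen presentation by MHC class I 7 of 13 above 0. B2m, the light chain of MHC class I, was 582, 570, 571 and 549 CPM untreated and 543, 523 and 528 CPM treated (log2 -0.10, adjusted p 0.426 by edgeR's quasi-likelihood test). DESeq2 called B2m. Heat shock proteins had 14 of 22 under 0 and immediate early genes 17 of 30 above 0. Neither list held a call by edgeR's quasi-likelihood test (0 and 1 higher, 3 and 2 lower at an unadjusted p under 0.05). Of all genes, 3.48% were higher and 4.47% lower at that threshold.

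**Figure D5:**
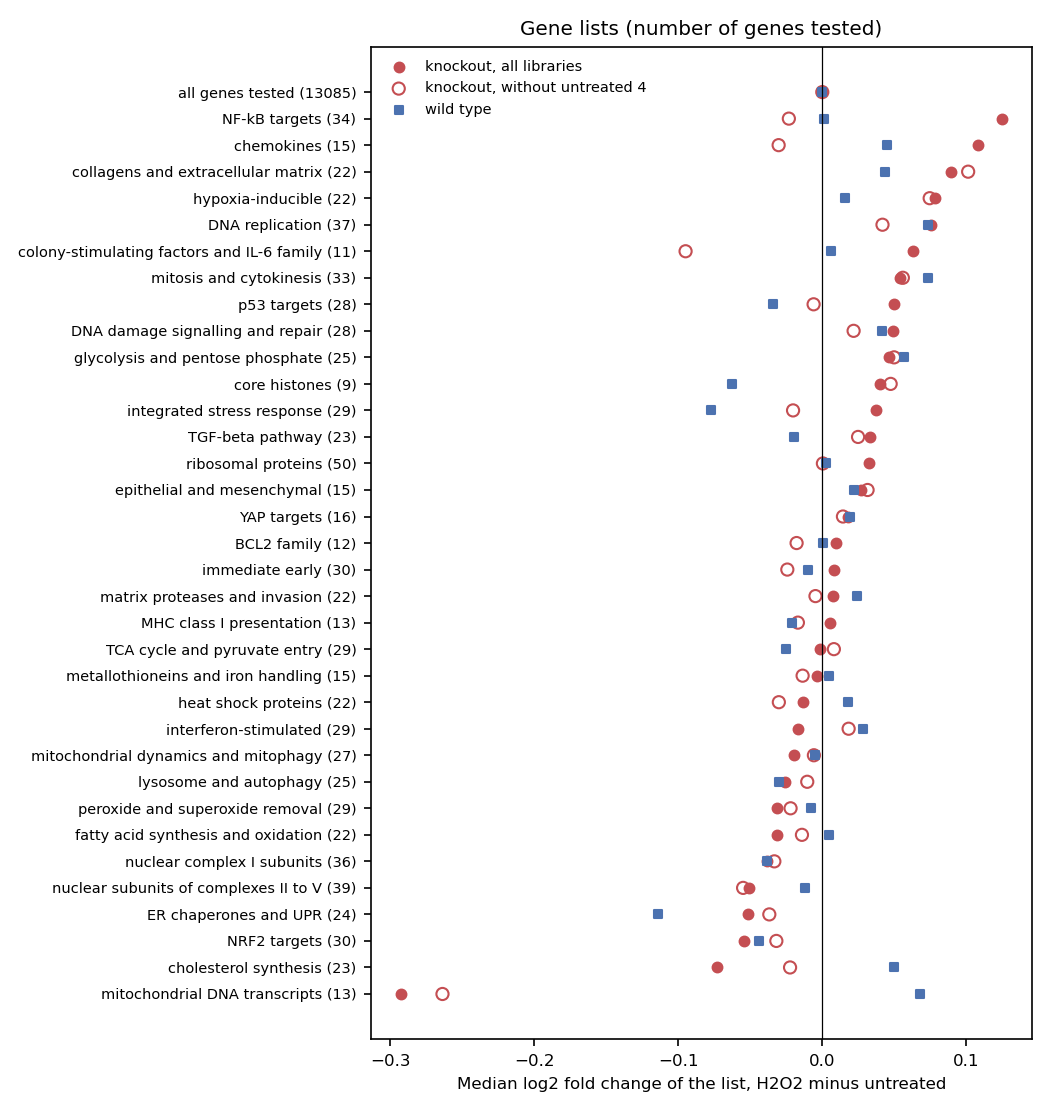
Median log2 difference between H2O2 and untreated cells for each list of at least 9 tested genes (number in parentheses), in knockout cells with all libraries (filled circles), without untreated library 4 (open circles) and in wild-type cells (squares). Mitochondrial DNA transcripts lie farthest below 0 in knockout cells at -0.29, and the NF-kB list moves from 0.12 to -0.02 when library 4 is left out.

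The same treatment in wild-type cells gave 2 calls of 13085 (0.0153%) and 847 genes at an unadjusted p under 0.05 (6.47%). The calls were Wdr54, a gene of a WD-repeat protein (log2 0.42, adjusted p 0.0273), and Selenos, which acts in protein degradation at the endoplasmic reticulum and fell by 0.26 on the log2 scale (adjusted p 0.0273). In knockout cells their log2 differences were 0.09 and -0.09. Of the 7 genes called in knockout cells, 3 had the same sign in wild-type cells. The test of the difference between both responses called 0 genes by edgeR's quasi-likelihood test, with 808 at an unadjusted p under 0.05 (6.18%), while DESeq2 called 15 and limma-voom 3. The smallest adjusted p of that difference among the 7 called genes was 0.148, for Mt1 and Ptms, and Rpl5 followed at 0.156. By that test no gene was shown to respond differently in the 2 genotypes. Endoplasmic reticulum chaperones had a median of -0.05 in knockout cells, with 3 of 24 lower at an unadjusted p under 0.05 (4.47% of all genes). In wild-type cells the median was -0.11, with 19 of 24 lower at that threshold (3.23% of all genes). That difference between genotypes was not tested for the list. Wild-type library 9 held immune markers that were at or near 0 in the other wild-type libraries, with Ptprc at 4.52 CPM and Cd3e at 0.878 CPM. Without it the wild-type comparison had 0 calls (593 genes at an unadjusted p under 0.05).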

How the data were processed

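Polyadenylated RNA of 15 libraries was sequenced in pairs from a stranded kit, per the labels' protocols. The deposited table holds expected counts per gene, whole numbers as deposited, and the submitters' processing notes name cutadapt, STAR and RSEM on mm10, with versions and settings not given in the sources used here. The authors also deposited RPKM, used only to compare levels between genes. Members and lists were chosen with earlier results of these data known.

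Counts were tested with edgeR 4.0.16 (R 4.3.3, limma 3.58.1, DESeq2 1.42.0): filterByExpr kept 13085 genes with 99.917% of counts, TMM scaled the libraries, and a robust quasi-likelihood model was fitted to 4 group means of all 15 libraries with 11 residual degrees of freedom. P-values were adjusted by Benjamini-Hochberg over all genes and called under 0.05. The script was tested on simulated data. The closest pair of replicates differed more than counting noise (chi-square per degree of freedom 2.07), so none was merged. Of 42 lists (895 genes), 802 genes were tested. Named were the called genes, those of at least 5 CPM with the smallest p up to 15 each way, all tested CLIC genes, and the 3 members (6 for NF-kB, chemokine, cytokine, NRF2 and peroxide lists) of each list with the smallest p. Genes named outside that rule were chosen after their values were seen: copies, Cdkn1a, Cat, Prdx1, Hmox1, Srxn1, Nqo1, Gclm, Gclc, Cxcl1, Csf3, Ccl2, Nfkbia, Sod2, Tnfaip2, mt-Atp6, mt-Co1, mt-Cytb, mt-Nd3 and the wild-type calls. A few list members are not reported here. Positions are from GENCODE M21 on mm10 and promoters from RefSeq on GRCm38.p6. Alternatives were other scalings, tools, filters, sample sets and leaving out each library.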

Additional observations from a re-analysis of the deposited data

Results flagged for a closer look

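In groups of 4 libraries, a library was singled out where its gap to the nearest of the others, divided by the whole range, passed Dixon's 95% value of 0.829. Of 185 such groups of named genes 15 passed, where chance gives about 1 in 20.

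Untreated knockout library 4 was the one singled out in 9 of the 15. It was low for Birc3, an inhibitor of cell death and the one NF-kB target of 29 tested that passed in this library, at 17.83 CPM against 24.35 to 25.06 in the other 3. It was also low for Skil, a repressor of SMAD signalling, at 20.5 CPM, for Aqp8 at 7.545 CPM and for Rpl3-ps1 at 1435 CPM. It was high for Ccnd1 (cyclin D1) at 297.1 CPM against 231.5 to 238.7, for the fatty acid enzymes Elovl6 at 128 CPM and Scd1 at 437.7 CPM, for G6pdx of the pentose phosphate pathway at 119.5 CPM, and for the lysosomal membrane gene Lamp1 at 806.4 CPM.

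Untreated knockout library 2 was singled out for 5 genes. It was high for Bcl2l1 at 80.64 CPM, Fth1 at 1769 CPM and Ifnar2 at 31.01 CPM, and low for the glycolytic gene Gpi1 at 971.1 CPM and for Gm4735, an enolase copy, at 635.5 CPM. Treated wild-type library 16 was high for Ptms, at 183.4 CPM against 166.4 to 168.7 in the other 3.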

How the results depend on the processing

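The number of knockout calls depended on the settings. It was 53 with DESeq2 (18 higher, 35 lower), 27 with no low-count filter (7 and 20), 13 with the knockout libraries alone and untreated library 4 left out (7 higher), 18 at an adjusted p under 0.1 and 0 under 0.01. With copies summed, chosen after seeing the data, there were 4, all lower. The 7 knockout libraries alone gave 4 higher and 3 lower, of which 2 (Kpna2 and Rpl5) were among the 7 genes called with all libraries, so that Mt1, Anp32b, Ptms and Basp1 were lost. Scaling by RLE or by library totals, limma-voom, a minimum of 10 CPM in 3 libraries and dispersion without robust weights each gave 1 higher gene. Limma-voom and dispersion without robust weights each called 8 genes and lost Ptms and Basp1. Over the settings other than summed copies and leaving out 1 library, Ptms and Basp1 each stayed called in 6 of 10. Anp32b and Mt1 stayed called in 8 of 10, Gm8186 in 7 of 8, Kpna2 in 9 of 9 and Rpl5 in 10 of 10. Leaving out 1 library at a time gave 0 to 21 calls, 0 to 6 higher and 0 to 15 lower: 0 without treated library 8, 1 without untreated library 4, 4 without treated library 5, 18 without untreated library 3 and 21 without wild-type library 15. Wild-type calls were 9 with DESeq2, 12 with no filter, 0 with limma-voom or without robust weights, and 0 to 13 on leaving out 1 library (0 without any of 5, 9, 10, 11, 14, 15 or 16, 6 without 4, 7 without 13 and 13 without 12). Calls of the difference between genotypes were 15 with DESeq2, 3 with limma-voom, 5 with no filter, 3 without robust weights and 0 to 3 on leaving out 1 library (1 without 8, 3 without wild-type 15). Causes were not tested. Summing cannot tell a shift of counts between copies from a change in the less abundant copy that the sum dilutes.

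Among the genes named by the rule and the 19 added to them, log2 differences that changed sign were all of genes not called, Rpl5 excepted. With copies summed these were Rpl5 0.0341, Gm4332 -0.0238, Gm9531 -0.110, Gm12918 -0.0108, Rpl36a-ps2 -0.0769, Atp5g2 0.0181, Ppia 0.0203, mt-Atp6 -0.339 and mt-Nd3 -0.175. Scaling by totals took Gclc to 0.000946. For the knockout libraries alone without library 4 they were Cxcl16 -0.0036, Cx3cl1 -0.0079, Clic4 -0.036, Itgam -0.0052, Ccl2 -0.16, Csf3 -0.217, Cxcl1 -0.249, Gclm -0.00999, Hmox1 -0.0106 and Nfkbia -0.0817. List members not named also changed sign, 23 of 34 NF-kB targets being under 0 without library 4. Leaving out 1 library gave -0.048 to 0.443 for Cxcl16, -0.00808 to 0.115 for Cx3cl1, -0.00594 to 0.0517 for Vim, -0.0364 to 0.0458 for Clic4, -0.0247 to 0.102 for Pdgfra, -0.0664 to 0.0772 for Itgam, -0.161 to 0.281 for Ccl2, -0.216 to 0.381 for Csf3, -0.249 to 0.23 for Cxcl1, -0.0444 to 0.00922 for Gclc, -0.0102 to 0.0607 for Gclm, -0.0112 to 0.116 for Hmox1, -0.082 to 0.214 for Nfkbia, -0.21 to 0.0256 for Nqo1 and -0.0394 to 0.00383 for Ppia. No scaling moved the median of all genes by over 0.1. No paired analysis was possible because library numbers 1 to 16 are not shared between groups. With 3 treated libraries at 12.3 to 14.7 M counts, small differences could go uncalled. These include some whose interval leaves out 0, because p-values were adjusted over all genes.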
